A study of Homo sapiens with 6 samples.

Results

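MIR17HG, MIR22HG, MIR31HG and MIR210HG are long non-coding RNAs whose genes hold the sequences of microRNAs, and they are described here across the Nutlin-3a time course. They are 4 of the 57905 rows of the deposited count matrix and were selected by name, as the rows whose Ensembl identifier is paired with these symbols in the deposited table of genes. All 4 had a row, and all 4 passed the filter on low counts that left 16565 genes to be tested. RNA-seq had been done on HCT116, a human colorectal carcinoma cell line with an intact p53 gene, and no genotype other than that of the line is given in the labels. Cells were treated with Nutlin-3a, a compound that blocks the binding of p53 by its inhibitor MDM2, for 1 h (Nut 1h) or 10 h (Nut 10h). Control cells (Nut 0h) received the vehicle DMSO, and no vehicle sample taken at 1 h or 10 h was analysed here. Each condition had 2 biological replicates, so that 6 libraries were compared.

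The libraries held between 26068076 and 35473485 counts assigned to genes, and replicates of a condition differed by more than counting noise. Mitochondrial rows took 8.15% and 8.44% of the counts at Nut 1h and between 4.99% and 7.06% in the other libraries, and no call of a member changed when these rows were left out. Of 8 colon epithelium markers, 6 had at least 10 counts in every library, whereas VIL1 and LGALS4, which mark differentiated enterocytes, had at most 15 counts in any library. CDKN1A, which encodes the p53-induced cell cycle inhibitor p21, rose at Nut 10h (3.84 on the log2 scale, adjusted p = 1.03e-10, quasi-likelihood test of edgeR) but was not called at Nut 1h (0.05, adjusted p = 0.704). MDM2 rose at both times, by 2.19 (adjusted p = 3.55e-08) and 3.75 (adjusted p = 4.51e-10). Under the GC-content offset described further on, CDKN1A was called higher at Nut 1h too (0.70, adjusted p = 2.71e-06, edgeR), and MDM2 was at 1.51 (adjusted p = 3.93e-10). Throughout, the adjusted p-value is the Benjamini-Hochberg value over the genes tested in the fit, and a gene was called at 0.05 or less. The main fit tested 16565 genes, and fits with another low-count filter or fewer libraries tested other numbers. Values of single libraries are counts normalized by TMM, a scaling of library sizes that assumes that most genes do not change.

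A microRNA is cut from a longer primary transcript. In the nucleus, Drosha and DGCR8 release a hairpin from the transcript, and in the cytoplasm Dicer cuts the hairpin to a short duplex, of which 1 strand is loaded into an Argonaute protein. The loaded strand finds messenger RNAs mostly through its seed, bases 2 to 8, and lowers their stability and translation. MIR17HG is the primary transcript of the miR-17-92 cluster, which promotes proliferation and is a known target of MYC and the E2F factors. MIR22HG carries miR-22, MIR31HG carries miR-31, which lies on the short arm of chromosome 9 near the interferon and CDKN2A genes, and MIR210HG lies over miR-210, the microRNA best known as a target of the hypoxia-inducible factors. The RNA-seq counts describe the long host RNAs. Mature microRNAs were not measured in the data analysed here.

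The mature microRNAs that each host can give rise to are shown to make clear which seeds stand behind each count. All 9 microRNA genes of the 4 loci matched an entry of RefSeq (GRCh38.p14), with 17 mature sequences and 14 distinct seeds, of which MIR17HG accounts for 6 microRNA genes and 12 mature sequences. The arm usually regarded as the main product of each gene is given 5′ to 3′, with the seed in capitals. For MIR17HG they form 4 seed groups, in which miR-17-5p and miR-20a-5p have the same seed, and so do miR-19a-3p and miR-19b-3p.
hsa-miR-17-5p: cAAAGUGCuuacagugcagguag
hsa-miR-20a-5p: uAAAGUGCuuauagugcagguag
hsa-miR-18a-5p: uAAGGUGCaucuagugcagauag
hsa-miR-19a-3p: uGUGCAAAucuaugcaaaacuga
hsa-miR-19b-3p: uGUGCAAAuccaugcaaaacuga
hsa-miR-92a-3p: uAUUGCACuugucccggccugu
For MIR22HG, MIR31HG and MIR210HG they are the following, and none of these 3 seeds recurs among the 17 sequences.
hsa-miR-22-3p: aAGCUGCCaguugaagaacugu
hsa-miR-31-5p: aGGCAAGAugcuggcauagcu
hsa-miR-210-3p: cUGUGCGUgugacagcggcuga

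The microRNAs sit differently within their hosts. Coordinates are of GRCh37, the build of the counts, with gene models of GENCODE. MIR17HG (ENSG00000215417) spans chr13:91999940-92049846 on the plus strand, and its 6 hairpins lie between 92002859 and 92003645, within an intron of 8 and within an exon of 3 of its 16 annotated transcripts. MIR22HG (ENSG00000186594) spans chr17:1614741-1620468 on the minus strand, and miR-22-3p, at chr17:1617208-1617229, is exonic in 30 of 32 transcripts. MIR31HG (ENSG00000171889) spans chr9:21380072-21559890 on the minus strand, and the miR-31 hairpin, at chr9:21512114-21512184, is intronic in 21 of 27 transcripts and exonic in none. MIR210HG (ENSG00000247095) spans chr11:565657-568457 on the minus strand, and the miR-210 hairpin, at chr11:568089-568198, is intronic in all 9 transcripts. The hairpins had nearly no counts of their own. The MIR31 row held 1 count in all, in Nut 1h replicate 1, and the MIR210 row held 3, 1, 0, 0, 0 and 2 counts in the order Nut 0h, Nut 1h and Nut 10h, with replicate 1 before replicate 2. The other 7 hairpin genes were not analysed here.

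The first question was whether the hosts changed 1 h after the addition of Nutlin-3a. All 4 did: MIR17HG and MIR22HG rose, and MIR31HG and MIR210HG fell. At Nut 1h, however, 66.9% of all tested genes were called, 34.5% higher and 32.3% lower, and the 2 groups did not overlap for 84.8% of them, so that 4 called members of 4 is not far from the background. At Nut 10h against Nut 0h, MIR22HG was higher and MIR210HG lower, and MIR17HG and MIR31HG were not called, against a background of 29.0% called genes (14.1% higher, 14.9% lower) and 61.4% without overlap. Between Nut 1h and Nut 10h, MIR17HG fell, MIR31HG and MIR210HG rose and MIR22HG was not called, against 67.9% called genes (34.2% higher, 33.7% lower) and 85.0% without overlap. These 3 comparisons use the same libraries in pairs and are not independent of each other. In libraries of pooled cells, fewer cells with a transcript and less of it per cell cannot be told apart.

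**Figure D1:**
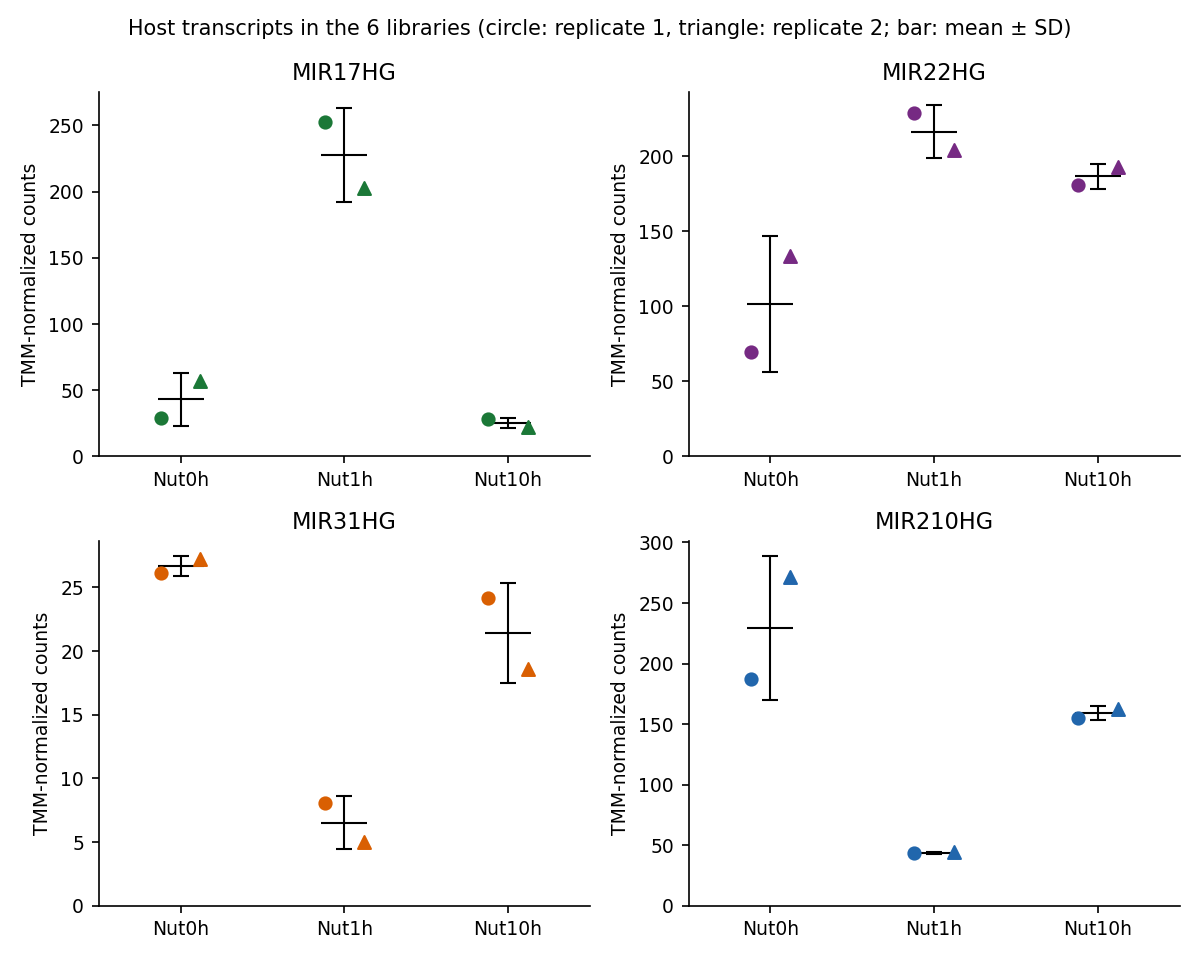
TMM-normalized counts (y axis, linear and from 0) of MIR17HG, MIR22HG, MIR31HG and MIR210HG in the 6 libraries, grouped by condition (x axis), with circles for replicate 1, triangles for replicate 2 and a bar for the mean ± SD (n = 2). MIR17HG peaks at Nut 1h (mean 228), MIR31HG and MIR210HG are lowest there (means 6.53 and 43.6), and MIR22HG is above Nut 0h at both times.

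MIR17HG, the precursor of the miR-17-92 cluster, had the largest rise of the 4 at Nut 1h and was back at or below its control level at Nut 10h. The 2 control libraries had 29.0 and 57.3 normalized counts, the Nut 1h libraries 252.8 and 202.6, and the Nut 10h libraries 28 and 22.3, from raw counts of 30 and 61, 252 and 161, and 29 and 24. Both Nut 1h libraries were far above the other 4, and both Nut 10h libraries were just below the lower Nut 0h library. The means were 43.1 ± 20.01, 228 ± 35.5 and 25.2 ± 4.03 (SD, n = 2 each). The rise at Nut 1h was 5.27-fold (log2 fold change 2.40, SE 0.25, adjusted p = 2.21e-06, edgeR), larger than the spread between replicates. From Nut 1h to Nut 10h the transcript fell 9.05-fold (log2 fold change -3.18, SE 0.28, adjusted p = 2.52e-07, edgeR). The difference between Nut 10h and Nut 0h was not called (log2 fold change -0.78, SE 0.33, adjusted p = 0.0977, edgeR). It depended on which control library was kept, at -1.19 (adjusted p = 0.00349, edgeR) without Nut 0h replicate 1, the lower one, and -0.21 (adjusted p = 0.71, edgeR) without Nut 0h replicate 2. Under the GC-content offset the rise at Nut 1h was smaller, at a log2 fold change of 1.45 (adjusted p = 6.43e-05, edgeR).

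MIR22HG, the host of miR-22, was higher than the control at both times and differed little between them. In normalized counts, the controls stood at 69.6 and 133.3, against 228.8 and 203.9 in the Nut 1h libraries and 180.8 and 192.6 in the Nut 10h libraries, from raw counts of 72 and 142, 228 and 162, and 187 and 207. All 4 treated libraries were above both control libraries, and the control libraries lay further apart than the replicates of either treated condition. The means were 101.5 ± 45.1, 216 ± 17.6 and 187 ± 8.37 (SD, n = 2 each). The rise was 2.13-fold at Nut 1h (log2 fold change 1.09, SE 0.22, adjusted p = 0.000656, edgeR) and 1.84-fold at Nut 10h (0.88, SE 0.22, adjusted p = 0.00931, edgeR). The values at Nut 10h were slightly below those at Nut 1h, and this difference was not called (-0.22, SE 0.21, adjusted p = 0.375, edgeR). Both rises depend on the control libraries. When Nut 0h replicate 1 was left out, the rise at Nut 1h was 0.69 and still called (adjusted p = 0.00207, edgeR), and that at Nut 10h was 0.48 and no longer called (adjusted p = 0.0631, edgeR). When Nut 0h replicate 2 was left out, they were 1.63 and 1.42.

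MIR31HG, the host of miR-31, was the least abundant of the 4 and fell at Nut 1h. The control libraries held 26.1 and 27.2 normalized counts, the Nut 1h libraries 8.03 and 5.03, and the Nut 10h libraries 24.2 and 18.6. They rest on few reads, with raw counts of 27 and 29, 8 and 4, and 25 and 20. Both Nut 1h libraries were below all others, and the Nut 10h libraries were below the Nut 0h libraries by little. The means were 26.7 ± 0.808, 6.53 ± 2.12 and 21.4 ± 3.93 (SD, n = 2 each). The fall at Nut 1h was 3.94-fold (log2 fold change -1.98, SE 0.44, adjusted p = 0.0013, edgeR), and from Nut 1h to Nut 10h the transcript rose 3.16-fold (1.66, SE 0.46, adjusted p = 0.00538, edgeR). Between Nut 0h and Nut 10h no difference was called (-0.32, SE 0.35, adjusted p = 0.539, edgeR). The rise from Nut 1h to Nut 10h was no longer called without Nut 1h replicate 2, the library with 4 reads (1.40, adjusted p = 0.0586, edgeR). The fall at Nut 1h was larger under the GC-content offset (-2.76, adjusted p = 8.14e-05, edgeR).

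MIR210HG, the host of miR-210, had the largest fall of the 4 at Nut 1h on the TMM scale, though not under the GC-content offset, and was nearer to the control level at Nut 10h. Against 187.5 and 271.4 normalized counts in the controls, the Nut 1h libraries held 43.1 and 44.1 and the Nut 10h libraries 154.7 and 162.8, from raw counts of 194 and 289, 43 and 35, and 160 and 175. The Nut 1h libraries were close to each other and far below the other 4, and the Nut 10h libraries were below both Nut 0h libraries. The means were 229 ± 59.3, 43.6 ± 0.641 and 159 ± 5.77 (SD, n = 2 each). The fall at Nut 1h was 5.26-fold (log2 fold change -2.40, SE 0.22, adjusted p = 6.62e-07, edgeR), and the rise from Nut 1h to Nut 10h was 3.64-fold (1.86, SE 0.22, adjusted p = 5.44e-06, edgeR). At Nut 10h the transcript was 1.45-fold below Nut 0h (-0.53, SE 0.18, adjusted p = 0.0359, edgeR). This last call was lost in 7 of the other settings, among them DESeq2's Wald test (-0.54, adjusted p = 0.0801) and the fit without Nut 0h replicate 2, the higher control library (-0.24, adjusted p = 0.374, edgeR). The fall at Nut 1h was smaller under the GC-content offset (-1.68, adjusted p = 1.3e-05, edgeR).

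The control libraries differed for 3 of the members. Nut 0h replicate 2 held 1.98 times the normalized count of replicate 1 for MIR17HG, 1.92 times for MIR22HG and 1.45 times for MIR210HG, and 1.04 times for MIR31HG. The median over all tested genes was 0.995, which the scaling itself brings near 1. That median does not show how many genes differ as much, and their share was not determined. At Nut 1h and Nut 10h the ratio of replicate 2 to replicate 1 lay between 0.627 and 1.07 for the 4 members.

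Levels can be set side by side between genes only per length of transcript, here as CPM (counts scaled to a common library size) per kilobase of the longest annotated transcript. At Nut 0h, MIR210HG was the highest (mean 3.03, libraries at 2.47 and 3.58), followed by MIR22HG (1.07, at 0.732 and 1.40), MIR17HG (0.199, at 0.134 and 0.264) and MIR31HG (0.124, at 0.121 and 0.126). The neighbours MIR17HG and MIR31HG were close at Nut 0h, where the lower MIR17HG library nearly reached the higher MIR31HG library. At Nut 1h the order was MIR22HG (2.28), MIR17HG (1.05), MIR210HG (0.575) and MIR31HG (0.0303), with no overlap between neighbours. At Nut 10h, MIR210HG (2.09, at 2.04 and 2.15) and MIR22HG (1.97, at 1.90 and 2.03) lay close to each other, and MIR17HG (0.116, at 0.103 and 0.129) and MIR31HG (0.0992, at 0.0863 and 0.112) overlapped. The lengths are those of the GENCODE models, and the gene models used for counting may differ. Per length of all annotated exons the order of the means was the same at Nut 0h and Nut 10h, but at Nut 1h MIR210HG (0.568) came before MIR17HG (0.535).

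At Nut 1h the change of a gene went along with the GC content of its transcript across all genes, and the members have to be read beside that. Over the 16137 tested genes with a known GC content, the log2 fold change at Nut 1h correlated with GC content with a Pearson r of -0.689, compared with -0.0264 at Nut 10h. These values are across genes of the same libraries, and genes are not independent replicates. MIR17HG has the lowest GC content of the 4 (34%), and among genes with 30% to 40% GC the median log2 fold change at Nut 1h was 0.789 and 82.7% were called higher. MIR31HG (37.3%) falls in the same range, in which 1.27% of genes were called lower as it was. MIR210HG (59.0%) lies in the range from 50% to 60%, with a median of -0.437 and 52.4% called lower. MIR22HG (50%) lies at the border between that range and the one from 40% to 50%, whose median was 0.381. Hence MIR17HG and MIR210HG moved with the genes of their GC content and further than their median, and MIR31HG moved against them.

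**Figure D2:**
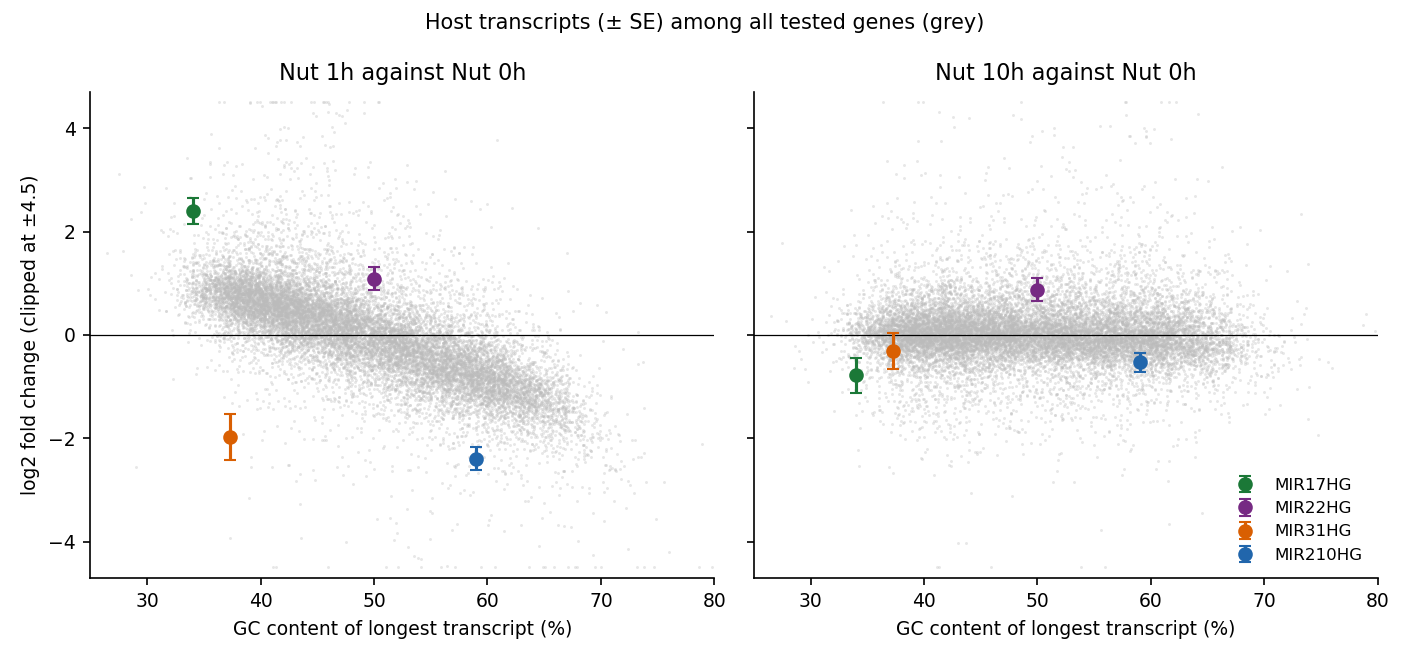
The log2 fold change (y axis, clipped at 4.5 in either direction) against the GC content of the longest transcript in percent (x axis) at Nut 1h (left) and Nut 10h (right), each against Nut 0h, with all tested genes in grey and the 4 host transcripts in colour with their SE. The grey cloud slopes down with GC content at Nut 1h (r = -0.689) and is flat at Nut 10h (r = -0.0264), and MIR31HG lies far below the genes of like GC content at Nut 1h.

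When a smooth trend on GC content was taken out of each library (the GC-content offset), all member calls at Nut 1h remained, with changed sizes, against 45.3% of all tested genes called in that fit (20.5% higher, 24.9% lower). MIR17HG went from 2.40 to 1.45, MIR210HG from -2.40 to -1.68 and MIR31HG from -1.98 to -2.76, whereas MIR22HG stayed at 1.10 (adjusted p = 0.000234, edgeR). At Nut 10h, where 39.3% of all tested genes were called with the offset (16.9% higher, 22.4% lower), it moved the log2 fold changes of the members little: MIR17HG was at -0.80 and just past the threshold (adjusted p = 0.0472), MIR22HG at 0.82 (adjusted p = 0.00327), MIR31HG at -0.34 (adjusted p = 0.486) and MIR210HG at -0.56 (adjusted p = 0.0178, edgeR). From Nut 1h to Nut 10h the 3 calls also remained, at -2.25 for MIR17HG, 2.41 for MIR31HG and 1.12 for MIR210HG, against 57.8% of all tested genes called (28.8% higher, 29.0% lower). The part of the GC trend in each change was not tested further.

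**Figure D3:**
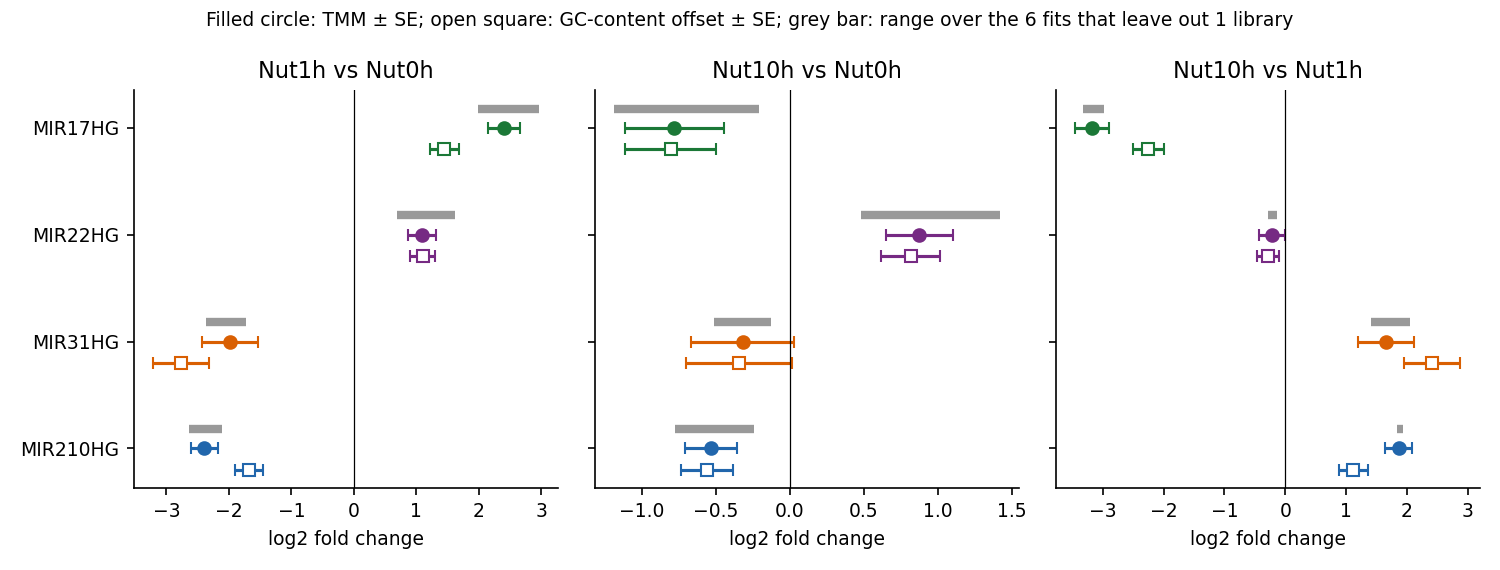
The log2 fold change (x axis) of each host transcript (y axis) in the 3 comparisons, with the TMM value as a filled circle and the value with the GC-content offset as an open square, each with its SE, and the range over the 6 fits that leave out 1 library as a grey bar; the x axes differ between panels. No grey bar crosses 0, while the SE of MIR31HG does at Nut 10h against Nut 0h. The offset moves MIR17HG and MIR210HG towards 0 and MIR31HG away from it at Nut 1h.

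The promoters of the 4 hosts were searched for letters that known regulators bind. For each gene, RefSeq (GRCh38.p14) gives 250 bases before and 50 after the start, all 4 were found, and each matched GRCh37 exactly once. They were rich in G and C, from 72.3% for MIR22HG to 80% for MIR210HG, with 32 to 44 CpG. Searched on both strands were CACGTG, the E-box that MYC binds, ACGTG, the core of the hypoxia response element, which is also part of CACGTG, the E2F motifs TTTCGCGC and TTTGGCGC, and the 10-base consensus that makes up each side of a p53 response element. In MIR17HG, the p53 consensus matched once, as GGGCTTGTCC beginning 43 bases before the start, and 6.64% of 34941 promoters of this length hold such a match. In MIR210HG, ACGTG was found once, beginning 170 bases before the start, and in MIR22HG once on the opposite strand, 112 bases before the start, and 21.4% of promoters hold it. CACGTG (7.23% of promoters), TTTCGCGC (0.507%) and TTTGGCGC (0.65%) were in none of the 4 windows, and none of the 5 searches matched in MIR31HG. The RefSeq start of MIR22HG lies 964 bases inside the GENCODE model given above, so its window (chr17:1619455-1619754) is within that model, and the starts of the other 3 hosts differ by 0 to 93 bases. A match is a description of the letters and not evidence of binding. The windows of MIR17HG and MIR210HG, which have a match on their own strand, are printed on the strand of the gene, with the matches in capitals, for MIR17HG at chr13:91999691-91999990 and for MIR210HG at chr11:568408-568707 (GRCh37).
MIR17HG: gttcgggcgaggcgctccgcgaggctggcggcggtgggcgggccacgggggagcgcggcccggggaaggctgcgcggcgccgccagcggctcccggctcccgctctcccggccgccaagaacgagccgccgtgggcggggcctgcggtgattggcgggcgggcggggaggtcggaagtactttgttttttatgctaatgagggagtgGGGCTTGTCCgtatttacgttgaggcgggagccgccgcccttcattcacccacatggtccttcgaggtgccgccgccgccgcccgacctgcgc
MIR210HG: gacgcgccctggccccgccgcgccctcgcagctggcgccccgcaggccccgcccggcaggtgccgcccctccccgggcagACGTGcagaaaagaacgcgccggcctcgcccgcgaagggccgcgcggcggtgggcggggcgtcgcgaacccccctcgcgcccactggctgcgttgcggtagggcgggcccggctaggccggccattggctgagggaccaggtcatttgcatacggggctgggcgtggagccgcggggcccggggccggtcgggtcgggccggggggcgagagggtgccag

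Genes near the hosts were used to see whether a host moved together with its surroundings. Within 100 kb, MIR17HG had 2 other rows, GPC5 and a pseudogene, and neither was tested, GPC5 with at most 5 counts in a library. Thus MIR17HG rose at Nut 1h in a region with nearly no other counts. MIR31HG had 17 other rows, mostly interferon genes, of which only KLHL9, an adaptor of a ubiquitin ligase, was tested. KLHL9 rose at Nut 1h (0.89, adjusted p = 7.47e-06, edgeR), opposite to MIR31HG, and was less changed with the GC-content offset (0.20, adjusted p = 0.0384). At Nut 10h KLHL9 was higher too (0.36, adjusted p = 0.0228), and also with the offset (0.33, adjusted p = 0.00225, edgeR). The call at Nut 10h without the offset was lost in most of the fits that leave out a library. The 11 rows that overlap MIR31HG had at most 10 counts in any library, and 4 of them share between 461 and 580 exon bases with it on the other strand, at no more than 8 counts.

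MIR22HG rose amid genes that mostly fell at Nut 1h. Of 9 tested neighbours, 7 were lower and 1, SERPINF1, was higher (0.80, adjusted p = 0.0166, edgeR), with a median log2 fold change of -1.18, against 32.3% lower and 34.5% higher over all tested genes. WDR81, which overlaps the upstream end of the GENCODE model of MIR22HG on the opposite strand without a shared exon base, fell by 1.21 (adjusted p = 1.14e-06, edgeR) and TLCD2 fell by 2.001 (adjusted p = 0.00724, edgeR). The call of TLCD2 was lost without Nut 0h replicate 2 (adjusted p = 0.0718) or Nut 1h replicate 1 (adjusted p = 0.0865, edgeR). Under the GC-content offset, 2 neighbours were lower and 1 higher (against 24.9% and 20.5% of all tested genes), with a median of -0.0692, and WDR81 was at -0.02 (adjusted p = 0.817) and TLCD2 at -1.999 (adjusted p = 0.0103), while MIR22HG remained at 1.10, below SERPINF1 at 1.28 (adjusted p = 0.000829, edgeR). At Nut 10h, 3 neighbours were higher, among them WDR81 (0.47, adjusted p = 0.00601, edgeR), and SMYD4 was lower (-0.81, adjusted p = 4.42e-05, edgeR), with a median of 0.136, against 14.1% higher and 14.9% lower over all tested genes. When 1 library was left out, between 5 and 7 neighbours were lower at Nut 1h, and the 1 higher call was lost without either Nut 1h library. At Nut 10h, 1 neighbour was higher without Nut 0h replicate 2, where WDR81 was not called (0.36, adjusted p = 0.057, edgeR), and 2 or 3 in the other such fits. Over all tested genes, the fits with 1 library left out called 25.5% to 33.0% higher and 25.3% to 32.8% lower at Nut 1h, and 9.88% to 14.4% higher and 9.36% to 14.4% lower at Nut 10h.

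MIR210HG fell at Nut 1h together with most of its neighbours. Of 12 tested genes within 100 kb, 10 were lower and CDHR5 was higher (2.06, adjusted p = 0.00389, edgeR), with a median of -1.21, against the same background. The nearest, RASSF7 and C11orf35, fell as well (-1.98 and -2.28, adjusted p = 1.99e-07 and 2.78e-07, edgeR), close to the -2.40 of MIR210HG. After the GC-content offset, 6 were lower and 3 higher (against 24.9% and 20.5% of all tested genes), the median was -0.201 and RASSF7 was at -0.33 (adjusted p = 0.00328), C11orf35 at -0.69 (adjusted p = 0.00297), compared with -1.68 for MIR210HG. The 3 higher ones were CDHR5 (3.27), DRD4 (1.51) and PHRF1, which turned from -0.60 to 0.50 (adjusted p = 0.000317 and 2.1e-05, edgeR). At Nut 10h only RASSF7 (-0.91, adjusted p = 0.000245, edgeR) and PHRF1 (-0.38, adjusted p = 0.0203, edgeR) were lower, as MIR210HG was (2 of 12, against 14.9% of all tested genes), and 4 were lower under the offset (against 22.4%). Without the offset that count was 7 without Nut 10h replicate 1, 4 without Nut 0h replicate 2, and 1, RASSF7 alone, without any of the other 4 libraries. At Nut 1h, 10 were lower in each such fit, and CDHR5 was not called without Nut 1h replicate 1 (1.20, adjusted p = 0.205, edgeR). The strand setting of the counting is not given in the sources used here, so reads of overlapping genes on opposite strands may not be separated.

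**Figure D4:**
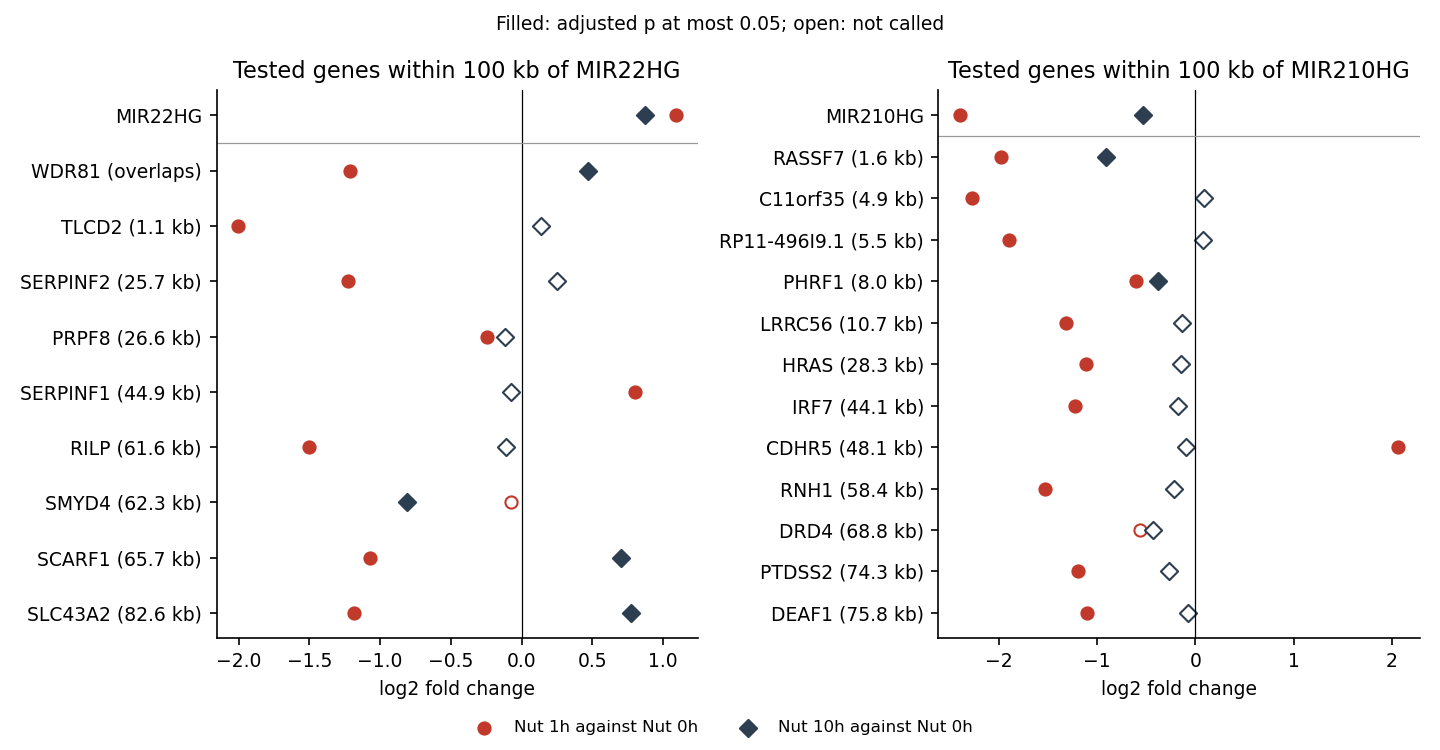
The log2 fold change (x axis) of MIR22HG and MIR210HG and of the tested genes within 100 kb of each, ordered by distance (y axis, distance in kb), at Nut 1h (red circles) and Nut 10h (dark diamonds) against Nut 0h, filled where called. At Nut 1h, MIR22HG lies to the right of 0 and, on this TMM scale, of all 9 neighbours, whereas 10 of 12 neighbours of MIR210HG lie called to the left of 0 as it does.

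For each host, the 3 genes with the most similar course over the 6 libraries were picked among 11581 genes with a mean of at least 100 counts, by the root mean square difference of log2 values after each gene's control mean was taken off. For MIR17HG these were SETD5-AS1 (0.341), MBNL3 (0.474) and ZNF567 (0.478), with log2 fold changes at Nut 1h of 2.66, 1.96 and 1.89, and no call at Nut 10h for any of them. For MIR22HG they were PCLO (0.113), LRP2BP (0.128) and RP11-295P9.3 (0.148), which were called higher at both times, although LRP2BP was not at Nut 10h without Nut 0h replicate 1 (0.39, adjusted p = 0.206, edgeR). LRP2BP, for instance, was at 1.003 and 0.73, and its control libraries stood at 58.95 and 102 normalized counts, apart in the same order as those of MIR22HG. For MIR31HG they were TMEM191A (0.100), CYP1A1 (0.134) and NMB (0.147), and for MIR210HG TOMM5 (0.248), AMH (0.260) and BLOC1S1 (0.264), which fell at Nut 1h (-2.55, -2.03 and -2.48). These genes were selected for their likeness, and their values are a description.

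The known regulators of MIR17HG did not all follow its course. At Nut 1h, when MIR17HG rose, MYC fell by 0.79 (adjusted p = 1.52e-05) and E2F1 fell by 1.13 (adjusted p = 4.57e-06), E2F2 was not called (-0.13, adjusted p = 0.283) and E2F3 rose by 0.98 (adjusted p = 9.56e-07, edgeR). At Nut 10h, when MIR17HG was at or below its control level, E2F1 fell by 2.44 (adjusted p = 1.43e-08) and E2F2 fell by 2.71 (adjusted p = 2.32e-09), E2F3 was not called (-0.18, adjusted p = 0.17) and MYC rose by 0.37 (adjusted p = 0.0162, edgeR). With the GC-content offset, E2F1 was not called at Nut 1h (-0.18, adjusted p = 0.0772) and E2F2 was higher (0.47, adjusted p = 0.000103), and MYC stayed lower (-0.88, adjusted p = 8.63e-07). E2F3 stayed higher at Nut 1h with the offset (0.71, adjusted p = 3.29e-07, edgeR). At Nut 10h the offset left MYC higher (0.31, adjusted p = 0.0134), and E2F3 was called lower (-0.23, adjusted p = 0.0133, edgeR). The rise of MYC at Nut 10h was not called when either Nut 0h replicate 2 (0.28, adjusted p = 0.128) or Nut 10h replicate 1 was omitted (0.27, adjusted p = 0.122, edgeR). MYCN had 0 counts in the first 4 libraries and 2 and 26 at Nut 10h, and was not tested.

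On the TMM scale, the hypoxia-response genes, the other members of the pathway in which miR-210 is known, were mixed. Of 17 genes, 9 were lower and 4 higher at Nut 1h (median -0.384), against 32.3% lower and 34.5% higher over all tested genes (median 0.0454). At Nut 10h, 5 were lower and 2 higher (median -0.118), against 14.9% and 14.1% (median 0.000174). At Nut 1h the log2 fold change was -2.09 for ANKRD37 (adjusted p = 1.02e-06), -1.46 for the stress-response gene NDRG1 (adjusted p = 5.9e-08), -1.005 for ADM, a vasodilator peptide (adjusted p = 6.59e-07), and -1.06 for PFKFB4, a regulator of glycolysis (adjusted p = 9.65e-07, edgeR). ANKRD37, the gene of the list with the lowest log2 fold change at Nut 1h, had 157 and 197 normalized counts in the controls, 40.1 and 42.8 in the Nut 1h libraries, and 158 and 168 in the Nut 10h libraries. The glucose transporter SLC2A1 fell by 0.99 at Nut 1h (adjusted p = 6.93e-07) and rose by 0.73 at Nut 10h (adjusted p = 2.62e-05), and NDRG1 rose by 0.54 at Nut 10h (adjusted p = 0.000353, edgeR). Under the GC-content offset the falls at Nut 1h were larger for ANKRD37 (-2.64) and smaller for NDRG1 (-1.28), SLC2A1 (-0.70), PFKFB4 (-0.54) and ADM (-0.32), all still called. With it, 13 genes were lower and 1 higher at Nut 1h, with a median of -0.496 (against 24.9% and 20.5% of all tested genes), and 8 were lower and 2 higher at Nut 10h, with a median of -0.146 (against 22.4% and 16.9%). None of the 4 genes higher at Nut 1h on the TMM scale stayed higher under the offset. PDK1 (-0.28), INSIG2 (-0.34) and LDHA (-0.20) were then called lower, and P4HA1 was not called (-0.05). Leaving out 1 library gave 8 or 9 lower genes at Nut 1h, and 4 higher ones except without Nut 1h replicate 1 (2) and Nut 0h replicate 1 (3). At Nut 10h such fits gave 2 higher genes each, and 2 lower ones without Nut 0h replicate 2, 3 without Nut 0h replicate 1, Nut 10h replicate 1 or Nut 1h replicate 1, and 4 or 5 otherwise.

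Among 16 genes that process host transcripts or act with microRNAs, 9 were higher and 2 lower at Nut 1h (median 0.371), and the calls were mostly small. Over all tested genes, 34.5% were higher and 32.3% lower. The one change of at least 1 on the log2 scale was DDX5, a helicase that works with Drosha, which rose by 1.16 (adjusted p = 4.75e-07, edgeR) and by 0.50 with the GC-content offset. With that offset 5 were higher and 2 lower, with a median of 0.14, against 20.5% and 24.9% of all tested genes. The 2 lower genes were not the same ones. They were TARBP2 (-0.77) and TNRC6C (-0.27) on the TMM scale, and PRKRA (-0.71) and XPO5 (-0.21) under the offset. At Nut 10h, 1 was higher and 3 were lower (median -0.0699), against 14.1% and 14.9%, among the latter DGCR8, the partner of Drosha (-0.74, adjusted p = 2.41e-05, edgeR), and under the offset 2 were higher and 7 lower (median -0.108), against 16.9% and 22.4%. With 1 library left out, 8 to 10 were higher at Nut 1h, and 1 instead of 2 was lower without Nut 0h replicate 2 or either Nut 1h library. At Nut 10h, omitting Nut 10h replicate 1 gave 3 higher and 3 lower genes, and omitting Nut 0h replicate 2 gave 2 higher and 1 lower. No gene of the list was called higher with Nut 0h replicate 1 omitted (2 lower) or with any of the other 3 libraries omitted (1 lower).

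Other genes that carry microRNAs moved in both directions. Of 18 further rows named as microRNA hosts in the same way as the members, 3 were tested, and the other 15 did not pass the filter on low counts. MIR4435-1HG was lower at both times (-0.45 and -0.37, adjusted p = 0.00326 and 0.0263, edgeR), the latter not called without Nut 0h replicate 2, Nut 10h replicate 1 or either Nut 1h library (adjusted p from 0.0536 to 0.15), and MIR503HG (-0.57 and -0.59) and MIR600HG (0.27 and -0.16) were not called. Under the GC-content offset all 3 were called at Nut 1h, MIR4435-1HG (-1.02) and MIR503HG (-1.10) lower and MIR600HG (0.60) higher. Of 15 genes with a microRNA in an intron, including the long non-coding host DLEU2, 9 were lower and 3 higher at Nut 1h (median -0.326), and 6 were lower and 1 higher at Nut 10h (median -0.0683). Over all tested genes these shares were 32.3% lower and 34.5% higher at Nut 1h (median 0.0454), and 14.9% and 14.1% at Nut 10h (median 0.000174). The offset gave 9 lower and 4 higher at Nut 1h (median -0.199), against 24.9% and 20.5% of all tested genes, and 7 lower and 1 higher at Nut 10h (median -0.11), against 22.4% and 16.9%. At Nut 1h the lower genes numbered 5 without Nut 1h replicate 1, 6 without Nut 0h replicate 1 and 7 to 9 in the other fits that leave out a library, and at Nut 10h they numbered 4 to 6. MCM7, a replication helicase subunit whose intron holds a paralogue of the MIR17HG cluster, fell by 1.14 at Nut 10h (adjusted p = 1.17e-06, edgeR). At Nut 1h its direction turned with the scaling, from -0.35 (adjusted p = 0.00652) to 0.26 under the GC-content offset (adjusted p = 0.00833, edgeR), and the fall was not called without Nut 0h replicate 1 (adjusted p = 0.0546) or Nut 1h replicate 1 (adjusted p = 0.0951, edgeR). SMC4, a condensin subunit that hosts relatives of miR-15 and miR-16, fell at Nut 10h by 1.28 (adjusted p = 1.06e-07, edgeR). At Nut 1h SMC4 rose by 0.71 (adjusted p = 7.88e-06), and with the offset it was not called (-0.08, adjusted p = 0.414, edgeR). PANK1, a coenzyme A synthesis enzyme and host of a miR-107 gene, rose at Nut 10h by 1.84 (adjusted p = 2.04e-07, edgeR) and was not called at Nut 1h (-0.03, adjusted p = 0.856), where the GC-content offset gave -0.74 (adjusted p = 0.000151). At Nut 1h PANK3, of the same family, rose (1.10, adjusted p = 3.11e-06), and SREBF1 (-1.16, adjusted p = 1.41e-06), CTDSP1 (-1.06, adjusted p = 9.75e-07) and EVL (-1.075, adjusted p = 8.39e-06, edgeR) fell. Under the offset these were smaller, at 0.29, -0.06, -0.20 and -0.51, and SREBF1 was not called (adjusted p = 0.491, edgeR).

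**Figure D5:**
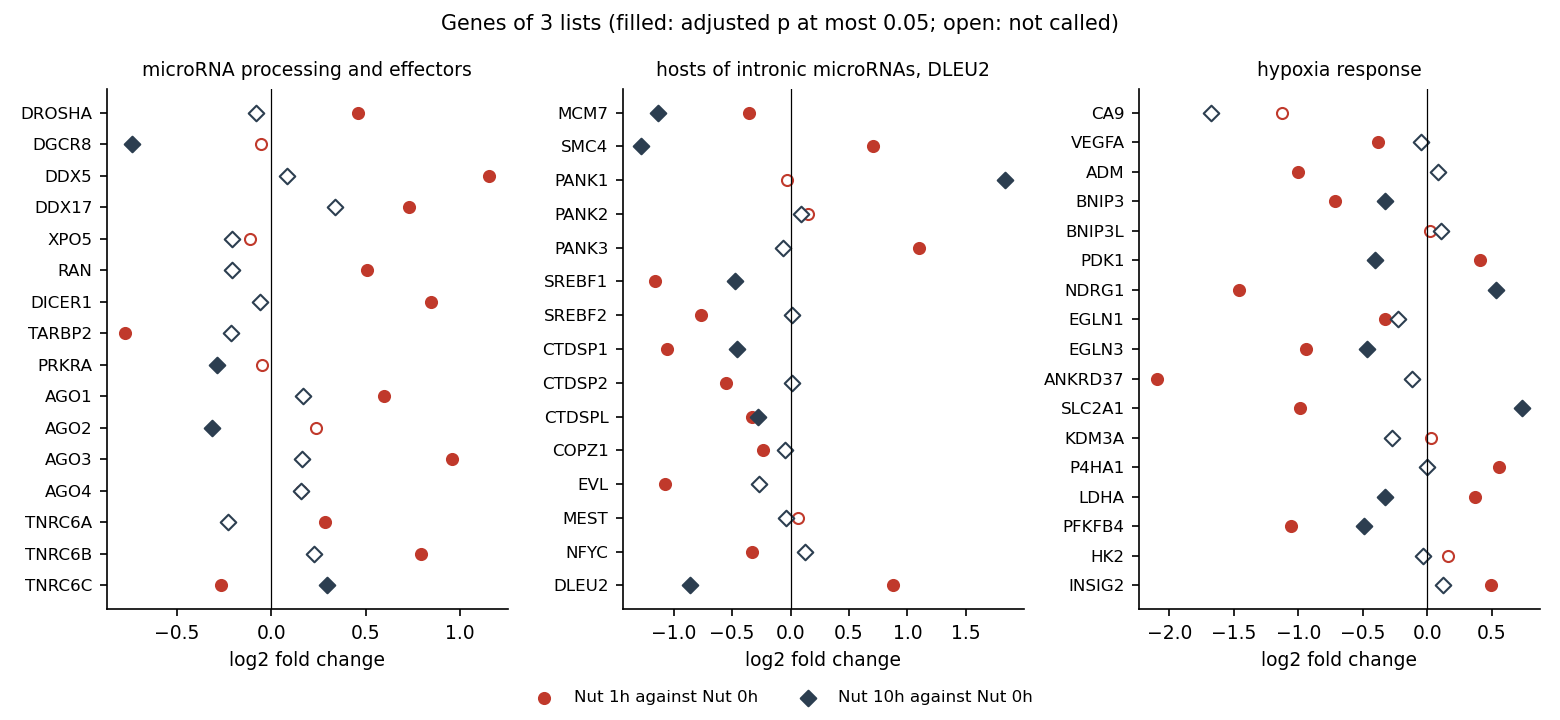
The log2 fold change (x axis) of each tested gene (y axis) of 3 lists, namely microRNA processing and effector genes (left), genes hosting intronic microRNAs with DLEU2 (middle) and hypoxia-response genes (right), at Nut 1h (red circles) and Nut 10h (dark diamonds) against Nut 0h, filled where called; the circle of AGO4 lies under its diamond. PANK1 stands out to the right at Nut 10h (1.84) and ANKRD37 to the left at Nut 1h (-2.09).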

How the data were processed

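RNA-seq of HCT116 cells was analysed in 6 libraries, 2 per condition. Per the submitters' processing notes and the methods, the authors trimmed reads with Trim Galore 0.6.6, aligned them to GRCh37.p13 with STAR 2.7.0f and counted them per gene with featureCounts of Subread 2.0.0. The deposited counts are raw and not normalized, and all 57905 rows name a gene. The strand setting and the treatment of multimapping reads are not given in the sources used here. A second deposited table holds the authors' own DESeq2 comparisons (log2 fold changes and p-values), of which only the gene symbols were used. The 4 members, the gene lists and the tests were chosen with earlier results of these data known.

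R 4.3.3 with edgeR 4.0.16 and limma 3.58.1 was used on the counts. After filterByExpr and TMM scaling, the quasi-likelihood test was fitted to all 6 libraries with no term besides the condition, which leaves 3 residual degrees of freedom. P-values were Benjamini-Hochberg adjusted over 16565 genes and called at 0.05. The SE given with a log2 fold change was derived from this test. It is the size of the log2 fold change divided by the square root of the F statistic. A normalized count is the raw count at the mean effective library size of the 6 libraries. In tests on simulated data for Nut 1h against Nut 0h with 16565 genes, 69 of 88 genes changed by 1 on the log2 scale and 106 of 112 changed by 2 were called, with 11 false calls. There all genes had the same spread, only those genes changed and no trend on GC content was put in. The real libraries differ in these points, so these rates need not hold for them. A count of 3, the floor, equals 0.0846 to 0.115 CPM in these libraries, and covers counting error only.

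Positions, lengths and GC content came from GENCODE mapped to GRCh37, while the annotation that the authors counted with is not given in the sources used here and may hold other gene models, and the GC-content offset is a loess trend (span 0.4) of each library's deviation on GC content. Named genes were the 4 members, for each the 3 genes of the most similar course, and the listed genes (for lists over 6 genes, those called with a log2 fold change of at least 1 in size against Nut 0h); the neighbours, and other listed genes such as DGCR8, SLC2A1, MIR4435-1HG and DLEU2, were named after their values were seen. Alternatives were other scalings and low-count filters, DESeq2 1.42.0, a stricter threshold, the replicate block, the GC-content offset, the 2 compared groups alone and each replicate left out. The counts of lists and neighbours with the GC-content offset, and with each library left out, were added after seeing the data. Figures were drawn with matplotlib 3.10.9.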

Additional observations from a re-analysis of the deposited data

Results flagged for a closer look

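Of the results on the members, 3 were flagged because the effect of treatment differed between the times. This was by a test of the difference itself, the comparison of Nut 10h with Nut 1h in the fit across all genes. For MIR17HG the difference was -3.18 on the log2 scale (adjusted p = 2.52e-07, edgeR), with a rise of 2.40 at Nut 1h and -0.78 at Nut 10h, both against Nut 0h. For MIR31HG it was 1.66 (adjusted p = 0.00538, edgeR), with a fall of -1.98 at Nut 1h and -0.32 at Nut 10h. For MIR210HG it was 1.86 (adjusted p = 5.44e-06, edgeR), with falls of -2.40 and -0.53. Of all tested genes, 67.9% were called in the same comparison, so that 3 called members of 4 is not far from the background.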

How the results depend on the processing

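No member's direction was turned by any alternative that gave a value. Of 189 values under alternatives, 176 kept their side of the threshold, 9 lost the call and 4 gained it. MIR17HG at Nut 10h against Nut 0h became called with no low-count filter (-0.82) and with the GC-content offset (-0.80), and ranged from -1.19 to -0.21 with 1 library left out. MIR210HG at Nut 10h against Nut 0h was not called with library size alone (-0.51), with DESeq2's Wald test (-0.54) or with only the 2 groups compared (-0.53), and ranged from -0.77 to -0.24 with 1 library left out. With 1 library left out, MIR22HG at Nut 10h against Nut 0h ranged from 0.48 to 1.42 and MIR31HG at Nut 10h against Nut 1h from 1.40 to 2.05, and the lone library left in a group is assumed to vary like the others. MIR31HG has no value under the filter of at least 10 counts in every library. The cause of these differences was not tested. The count of called genes was 7300 with the replicate block and GC-content offset together at Nut 1h, compared with 11077, and 2980 at an adjusted p of at most 0.01 at Nut 10h, compared with 4810. The split of calls at Nut 1h went from 5722 higher and 5355 lower to 3392 and 4119 with the GC-content offset. With library size alone, the median over all tested genes at Nut 1h was 0.103, compared with 0.0454, and MIR17HG was at 2.45. Across genes, deviations of same-numbered libraries from their group means correlated with r of -0.149 (Nut 0h with Nut 1h), 0.221 (Nut 0h with Nut 10h) and -0.138 (Nut 1h with Nut 10h). With 2 libraries per condition and genes that are not independent, these values cannot decide whether replicate numbers pair the libraries. The replicate block gave 10979, 4893 and 11189 called genes in the 3 comparisons and changed no call of a member, with MIR17HG at 2.40 and MIR210HG at -2.37 at Nut 1h. Depth limits MIR31HG most, with 4 to 29 reads per library.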

Other observations

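Some rows of the marker and regulator lists differed strongly between libraries, and those named here were picked after their values were seen. COL1A2 held 25 counts in Nut 10h replicate 2 and at most 1 in any other library, and MYCN held 26 counts in the same library and at most 2 elsewhere. LYZ held 78 and 21 counts at Nut 0h and at most 3 in the treated libraries. COL1A1 held between 621 and 1484 counts in every library. Of the 8 markers of other cells that were looked for, 7 had a row, and PECAM1 was not analysed here.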
